A study of Mus musculus with 24 samples.

Results

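The genes described here handle iron in the macrophage: they take it up, store it, export it or set how much of it leaves the cell. The 9 genes of this group, chosen by name, are Tfrc, Slc11a2, Slc11a1, Fth1, Ftl1, Slc40a1, Cp, Hamp and Cd163. All 9 were present on the arrays, with 20 probes among the 56605 gene probes, and 19 of those 20 were among the 39036 probes bright enough to be tested. The probe left out was A_55_P2289819 of Cd163, which was not well above background on any array.

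Measured were 6 groups of 4 arrays each, all from mouse bone marrow-derived macrophages grown for 6 days with M-CSF at 20 ng/ml, a growth factor that turns marrow cells into macrophages. KO cells came from mice deficient in myeloid GLUT1, the glucose transporter encoded by Slc2a1, made by crossing LysMCre with Slc2a1fl/fl, so that Cre acts mainly in myeloid cells. WT cells carried the genotype label WT or Slc2a1 fl/fl floxed control, with no Cre named. Each genotype was measured after 24 h with LPS at 5 ng/ml plus IFNγ at 10 ng/ml (M1), after 24 h with 10 ng/ml IL-4 (M2) and after 24 h untreated (M0). The groups are therefore KO M1, WT M1, KO M2, WT M2, KO M0 and WT M0, each with 4 biological replicates according to the series' design.

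Most body iron passes through macrophages, which break down old red blood cells and return their iron to the blood. Iron enters bound to transferrin through the transferrin receptor (Tfrc), crosses the membrane of endosomes and phagosomes through metal carriers (Slc11a2, Slc11a1), is held in ferritin (Fth1, Ftl1) and leaves through ferroportin (Slc40a1), the only known iron exporter of mammals. Hepcidin (Hamp), a peptide hormone made mainly by the liver, binds ferroportin and causes it to be degraded, and inflammation is known to raise hepcidin and to lower ferroportin so that iron is kept in macrophages.

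Levels below are log2 of a probe's intensity relative to its own array's 75th percentile, so a level of 0 is the brightness of that percentile and a difference of 1 is a doubling. Differences are given with their SE and with limma's p-value adjusted over all 39036 probes, and a probe was called at an adjusted p under 0.05. A level can be compared between arrays for the same probe, and not between probes. These are bulk samples, so fewer cells of a type and less RNA per cell cannot be told apart.

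The 75th percentile lay between 1504 and 2973 intensity units over the 24 arrays and was lowest in KO M1 (1504 to 1705). The share of probes well above background ran from 53.1% to 71.4%, and no spot was saturated. All 6 macrophage marker genes were well above background on every array, and their summed level relative to the percentile was 574 to 784 in KO M1 and 624 to 734 in WT M1. The 8 neutrophil marker genes summed to 69.57 to 172.9 in KO M1 and 20.03 to 71.29 in WT M1. In KO M1 against WT M1, 3 of the 8 (Camp, Ngp, S100a9) were called higher and 1 (Ly6g) lower, beside 22.8% and 21.3% of all genes. The part of neutrophils in the results below was not tested. The arrays fell into 4 sets of 6, 1 array per group: the 4th set held the arrays that gave no signal well above background for 3 Y-linked genes (Ddx3y, Eif2s3y, Uty), and the remaining arrays of slides 1 to 3 gave a set each. The Slc2a1 probe gave log2 differences of KO against WT of 0.25 in M1, -0.18 in M2 and -0.33 in M0, none called; the sources used here do not say where it lies relative to the deleted part, so it does not check the genotype label. Lyz2, the gene into which LysMCre is inserted, was lower in KO in all 3 states (-3.37, -4.04 and -2.66, each called). With no Cre named for the WT cells, loss of GLUT1 and the Cre insertion cannot be told apart in the differences of KO against WT below.

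Between the genotypes, iron genes differed in M1 cells, and none was called in M2 or M0 cells. In KO M1 against WT M1, 3 of the 9 genes were called higher by their brightest probe (Hamp, Tfrc and Ftl1) and none lower. That split depends on the fit: with the set as a block 5 were higher and 2 lower (Slc11a1 and Slc40a1), with median scaling 2 higher and 2 lower, with quantile normalization 2 higher and 1 lower, and with no scaling between arrays 1 higher and 2 lower. Hamp was called higher in each of these 4 fits. The 5 called higher with the set as a block included Cd163, whose probe was not well above background on any M1 array. The split of all probes moved too: 9473 of 17676 calls were higher in the main fit and 12216 of 21711 with the set as a block. It was 6114 of 17679 with median scaling, 7784 of 17636 with quantile normalization and 5051 of 16649 with no scaling. Over all 25791 genes tested, 22.8% were called higher and 21.3% lower in the same comparison, so a count of 3 of 9 says little about iron genes as a group. Counted by probe, 8 of the 19 were higher, against 24.3% of all probes, and the others among them were probes of Slc11a2 and Cp. The median difference of the 9 genes was 0.28, beside 0.13 over all genes. In M2 and in M0 no iron gene was called, where 0.0465% and 0.0543% of all genes were called in either direction, and no probe of the 9 genes reached an unadjusted p under 0.05 in either state (1833 and 1297 of all probes did). The test of whether the genotype changed the response to M1 activation also called Hamp, Tfrc and Ftl1 higher in KO, from the same M1 arrays, with 15% of all genes called higher and 14.8% lower.

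**Figure D1:**
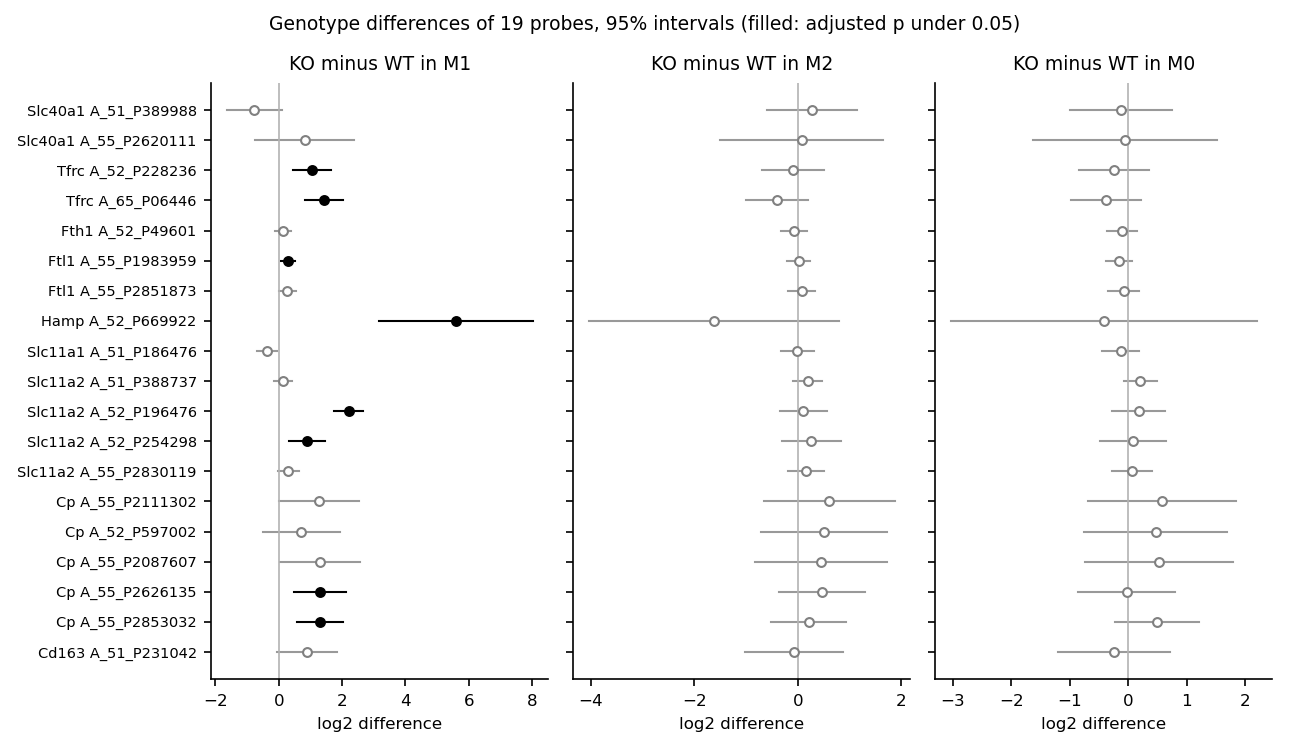
Log2 difference, KO minus WT, for each probe of the 9 iron genes in M1, M2 and M0, with its 95% interval; filled points were called at an adjusted p under 0.05. The 8 called probes are all in M1 and all above 0, from 0.28 for Ftl1 to 5.60 for Hamp.

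Hamp encodes hepcidin. Its probe A_52_P669922 (mm9 chr7:31727490-31727549, minus strand) had intensities of 1712, 2528, 2625 and 2391 in KO M1 and 52.1, 106.9, 42.0 and 55.2 in WT M1. All 4 KO M1 arrays lay above all 4 WT M1 arrays, with 4 of 4 and 3 of 4 arrays well above background. The mean difference was 5.60 ± 1.16 (48.4-fold, limma adjusted p = 0.0005075) and ran from 5.14 to 6.08 within the 4 sets. Without the 2 arrays that had over 1000 spots marked as nonuniform, WT M2 replicate 2 and KO M0 replicate 3, the difference was 5.60 ± 0.21.

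In the other states hepcidin was at background on all arrays but 2, both with many nonuniform spots. None of the 4 KO M2 arrays (12.6 to 18.5) had it well above background. WT M2 read 12.2, 8.90 and 11.96 on 3 arrays and 4048 on replicate 2. The 3 KO M0 spots used read 7.21, 6.83 and 6.40, and the spot of KO M0 replicate 3, which read 819, was marked as nonuniform and left out. The 4 WT M0 arrays read 7.66 to 10.2. Of the 121 spots in the square around the Hamp spot, 48 were marked as nonuniform on WT M2 replicate 2 and 39 on KO M0 replicate 3, against 0 on 21 of the other arrays and 2 on KO M0 replicate 4. The single high reading in WT M2 thus sits among nonuniform spots, although its own spot was not marked; their part in the reading was not tested.

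Against untreated cells of the same genotype, hepcidin in KO M1 was at least 109-fold higher than in KO M0 (fitted log2 difference 8.94, limma adjusted p = 4.11e-06) and in WT M1 at least 1.70-fold higher than in WT M0 (2.93 ± 1.16, adjusted p = 0.04349). The bound sets the M1 mean against the lowest signal called well above background on the M0 arrays. The WT call was lost when any of the 8 arrays was left out, with adjusted p between 0.0575 and 0.0947, whereas the KO call was kept in each such fit. The difference between the genotypes' responses was 6.01 ± 1.70 (adjusted p = 0.01034), but its call was lost with outlier spots kept, those marked nonuniform included (4.38, adjusted p = 0.1175) and without the 4th set (5.81, adjusted p = 0.06508).

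The mouse has a close copy of the gene, Hamp2, and the sequences of both probes are shown because they bear on which copy was read. Capitals mark the bases that differ within the aligned stretch.
Hamp probe: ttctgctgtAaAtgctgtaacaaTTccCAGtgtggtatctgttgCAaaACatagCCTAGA
Hamp2 probe: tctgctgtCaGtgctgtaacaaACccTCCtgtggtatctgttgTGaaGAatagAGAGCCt
The Hamp2 probe (A_52_P21486, mm9 chr7:31707520-31707579, minus strand) shared 42 of 59 aligned bases with the Hamp probe (71.19%). It read 226, 597, 277 and 292 in KO M1 and 59.9, 91.8, 46.2 and 79.8 in WT M1, again with all KO M1 arrays above all WT M1 arrays. On the 4 KO M0 arrays the Hamp2 probe read 91.1 to 156 and was well above background, while the Hamp spots used there read 6.40 to 7.21. Over the M2 and WT M0 arrays the Hamp2 probe read 34.9 to 112. Whether Hamp RNA adds to the Hamp2 signal in KO M1 was not tested.

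The 250 bases before the start site of Hamp are shown because its control is known to run through this stretch (RefSeq, GRCm38.p6 chr7:30944030-30944279, minus strand). In liver, IL-6 is known to raise hepcidin through STAT3 and bone morphogenetic proteins through SMAD factors. Capitals mark a match to TTCNNNGAA, the general form of a STAT element, starting 97 bases before the start site, and a match to GGCGCC, a form of the BMP response element, starting 109 bases before it.
Hamp upstream: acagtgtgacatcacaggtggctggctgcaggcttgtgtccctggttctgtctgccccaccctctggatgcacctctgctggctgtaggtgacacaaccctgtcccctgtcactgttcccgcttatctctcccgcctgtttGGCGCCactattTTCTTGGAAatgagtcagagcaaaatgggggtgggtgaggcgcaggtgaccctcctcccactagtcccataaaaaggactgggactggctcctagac
Both motifs were searched on both strands and do not overlap here. TTCNNNGAA occurred in 7.02% of 32851 windows of this length and GGCGCC in 9.586%. Upstream windows were at hand for 7 of the 9 genes (10 windows), of which 1 held TTCNNNGAA, that of Hamp, and 2 held GGCGCC, those of Hamp and of 1 of the starts of Tfrc. A match is a run of letters and not a site shown to be bound.

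Among 13 genes listed for hepcidin control, 10 were tested. In KO M1 against WT M1, 2 were called higher and 1 lower, with a median of 0.54, beside 22.8% higher, 21.3% lower and a median of 0.13 over all genes. Il6, the cytokine that raises hepcidin in liver, was higher by 3.09 ± 1.11 (limma adjusted p = 0.02793), although its arrays overlapped between the groups and the call was lost with no scaling between arrays (2.74, adjusted p = 0.06197). Id1, a target of BMP signalling, was higher by 2.27 ± 0.53 (adjusted p = 0.001313). Hfe, whose loss causes hereditary iron overload, was lower, at -1.22 ± 0.25 (adjusted p = 0.0003791). With M1, Hfe fell in both genotypes (-3.67 in KO, -2.49 in WT), as did Bmp2, a BMP ligand, (-4.00 in KO, -4.44 in WT), and Il6 was higher in both (9.98 in KO, 7.26 in WT, with 2 of 4 M0 arrays of each genotype well above background).

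Slc40a1 encodes ferroportin. The levels of its brighter probe, A_51_P389988 (mm9 chr1:45965255-45965314, minus strand), were 2.31, 1.99, 1.85 and 2.16 in KO M1 and 2.87, 2.67, 3.72 and 2.13 in WT M1. In M2 they were 1.09, 2.18, 1.85 and 3.00 in KO and 0.81, 1.91, 1.68 and 2.62 in WT. Untreated cells had the highest levels, at 4.48, 5.63, 5.29 and 5.18 in KO M0 and 4.37, 5.82, 5.31 and 5.58 in WT M0. Every activated array lay below every untreated array of its genotype, in M1 and in M2 alike.

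Ferroportin fell with M1 by 3.07 ± 0.42 on the log2 scale in KO (limma adjusted p = 2.326e-06) and by 2.42 ± 0.42 in WT (adjusted p = 6.709e-05). It fell with M2 by 3.11 ± 0.42 in KO (adjusted p = 3.261e-05) and by 3.51 ± 0.42 in WT (adjusted p = 6.622e-06). In each of the 4 comparisons the sign was the same in all 4 sets. The dimmer probe A_55_P2620111 was called lower in all 4 as well, but it was well above background on only 1 of 4 KO M1, 3 of 4 WT M1, 1 of 4 KO M2 and 2 of 4 WT M2 arrays, against all 8 M0 arrays, so the sizes of its falls are not given.

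Between genotypes, the difference of ferroportin in KO M1 against WT M1 was -0.77 ± 0.42 and did not pass the test (limma adjusted p = 0.1424), and the 4 sets ran from -1.87 to 0.02. With the set as a block the same difference was called (adjusted p = 0.03937), as it was with median scaling (-1.05, adjusted p = 0.0416) and with no scaling between arrays (-1.12, adjusted p = 0.02551). The dimmer probe was not called. Its mean level was -4.54 in KO M1 and -5.35 in WT M1, the opposite direction to the brighter probe. It was mostly at background in KO M1, so the size of its difference is not read. In M2 and M0 the differences were 0.28 and -0.12.

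Cp encodes ceruloplasmin, a copper-dependent ferroxidase that oxidises the iron leaving through ferroportin so that transferrin can bind it. The brightest of its 5 probes, A_55_P2111302 (mm9 chr3:19889071-19889130, plus strand), had levels of 4.27, 3.16, 3.50 and 2.87 in KO M1 and 2.92, 1.96, 2.07 and 1.71 in WT M1. It had 0.36, 1.81, 0.47 and 0.02 in KO M0 and -0.84, 0.85, -0.03 and 0.36 in WT M0. The M1 arrays lay above the M0 arrays of their genotype without overlap. Cp rose with M1 by 2.78 ± 0.61 in KO (limma adjusted p = 0.0005047) and by 2.08 ± 0.61 in WT (adjusted p = 0.007395).

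The difference of Cp in KO M1 over WT M1 lay between 1.28 and 1.302 on 4 of the 5 probes, and the test called 2 of them. Probe A_55_P2853032 was higher by 1.302 ± 0.35 (limma adjusted p = 0.004139) and A_55_P2626135 by 1.298 ± 0.40 (adjusted p = 0.01122). The brightest probe gave 1.28 ± 0.61 (adjusted p = 0.09135) and was called with the set as a block (adjusted p = 0.02491). A_55_P2087607 gave 1.29 ± 0.61 (adjusted p = 0.09047) and A_52_P597002 gave 0.71 ± 0.58 (adjusted p = 0.3414). All 5 probes had the same sign in all 4 sets. The array design assigns A_55_P2111302 and A_55_P2626135 to the same transcript and each other Cp probe to a different one, so the probes need not read the same RNA. They differed in which responses to activation were called: A_55_P2853032, which lies furthest towards the start of the gene on the plus strand, was not called with M1 in KO (0.55) or in WT (-0.26). In KO that rests on KO M0 replicate 2, without which it was called higher (0.91, adjusted p = 0.01952), as it was without the 4th set (0.90, adjusted p = 0.007095). It was the only Cp probe called lower with M2 in KO (-1.23 ± 0.35, adjusted p = 0.02181), a call lost in 4 of the 8 fits with 1 array left out (-1.52 to -0.87): without KO M2 replicate 1, 2 or 3 or KO M0 replicate 2. With M2 the brightest probe differed by -1.45 in KO and -1.48 in WT, not called, and was called with the set as a block (adjusted p = 0.02951 and 0.02458).

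**Figure D2:**
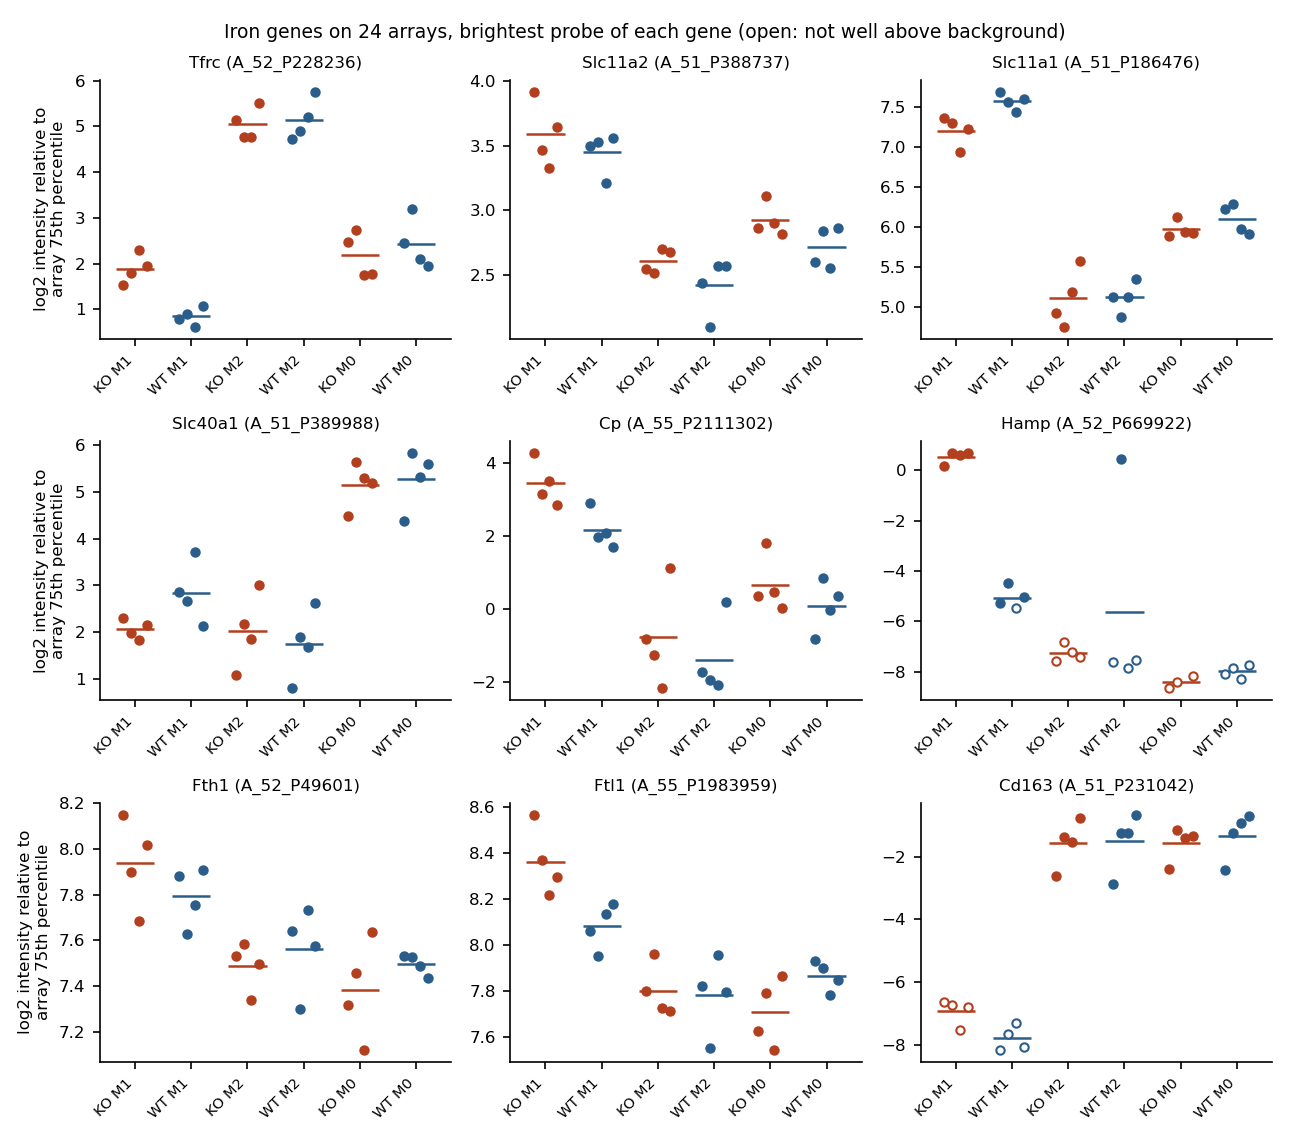
Log2 level of the brightest probe of each of the 9 genes on all 24 arrays, relative to the array's 75th percentile, by group, with the group mean as a line; open points were not well above background. Slc40a1 is lower in all 4 activated groups than in M0, Hamp stands high in KO M1 and on a single WT M2 array, and Tfrc is highest in M2.

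Tfrc encodes the transferrin receptor. Its probe A_52_P228236 (mm9 chr16:32632255-32632314, plus strand) had levels of 1.53, 1.80, 2.29 and 1.96 in KO M1 and 0.79, 0.91, 0.62 and 1.07 in WT M1. It had 2.47, 2.74, 1.74 and 1.77 in KO M0 and 2.45, 3.2045, 2.11 and 1.94 in WT M0. All WT M1 arrays lay below all WT M0 arrays, while KO M1 overlapped KO M0 and lay above WT M1 throughout. Tfrc was higher in KO M1 than in WT M1 by 1.05 ± 0.29 (2.06-fold, limma adjusted p = 0.004905; 0.74 to 1.67 within sets).

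With M1, Tfrc fell in WT (-1.58 ± 0.29, limma adjusted p = 0.000106), whereas the difference in KO was -0.29 ± 0.29 (adjusted p = 0.4107). The test of the genotype's effect on this response gave 1.29 ± 0.40 (adjusted p = 0.01844). The other probe, A_65_P06446, gave 1.42 ± 0.29 for KO M1 over WT M1 (adjusted p = 0.0003748) and 1.79 ± 0.41 for the response (adjusted p = 0.00182). With no scaling between arrays, A_52_P228236 was no longer called in KO M1 against WT M1 (0.70, adjusted p = 0.07787) and was called lower in KO M1 than in KO M0 (-0.88, adjusted p = 0.02194), and the genotype's effect on its response was not called (0.88, adjusted p = 0.151).

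IL-4 moved the receptor the other way. Its levels were 5.15, 4.77, 4.77 and 5.50 in KO M2 and 4.72, 4.89, 5.21 and 5.75 in WT M2, above every M1 and M0 array. The rise over M0 was 2.86 ± 0.29 in KO (limma adjusted p = 7.206e-07) and 2.72 ± 0.29 in WT (adjusted p = 1.246e-06), and 2.93 and 2.95 on the other probe. The difference in KO M2 against WT M2 was -0.10, with a 95% interval from -0.69 to 0.50.

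Slc11a2 encodes DMT1, which moves ferrous iron out of endosomes into the cytosol. Its 4 probes lie on the minus strand of mm9 chr15 and did not give the same answer, so their first 30 bases are shown in the order in which they lie along the transcript's direction.
A_52_P254298: gagactctgaggagcccttcaccacctact
A_52_P196476: tgttccctattcacttgattgtcactgaaa
A_55_P2830119: gtatcgatatgtatttatgtgaacccaaac
A_51_P388737: tgctttaatcccaaccagaaataatcatcc
The array design assigns A_52_P196476 (chr15:100223347-100223406) to another transcript of the gene than the other 3 probes (chr15:100240516-100240575 for A_52_P254298, chr15:100219212-100219271 for A_55_P2830119 and chr15:100218333-100218392 for A_51_P388737).

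A_52_P196476 had levels of 2.87, 2.79, 2.84 and 2.64 in KO M1 and 0.49, 0.80, 0.29 and 0.73 in WT M1. It had -0.15, -0.49, 0.23 and -0.38 in KO M2 and -0.07, -0.71, 0.18 and -0.60 in WT M2. In M0 it had -0.75, -0.41, -0.39 and -0.30 in KO and -1.10, -0.75, -0.70 and -0.03 in WT. KO M1 stood apart from the other 5 groups with no overlap. The difference of KO M1 over WT M1 was 2.21 ± 0.22 (limma adjusted p = 5.56e-08; 1.91 to 2.54 within sets) and that of the M1 response 2.02 ± 0.31 (adjusted p = 3.462e-05). M1 over M0 was 3.25 ± 0.22 in KO (adjusted p = 9.536e-11) and 1.22 ± 0.22 in WT (adjusted p = 9.11e-05).

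The other Slc11a2 probes gave smaller differences between genotypes. A_52_P254298 was higher in KO M1 than in WT M1 by 0.88 ± 0.27 (limma adjusted p = 0.0118), a call lost with median scaling (0.61, adjusted p = 0.05008) and with no scaling (0.54, adjusted p = 0.07823). A_55_P2830119 gave 0.31 ± 0.16 (adjusted p = 0.1393) and the brightest, A_51_P388737, 0.14 ± 0.13 (adjusted p = 0.4187; 95% interval -0.14 to 0.42). With M1 over M0 all 4 probes were called higher in both genotypes, the brightest by 0.67 ± 0.13 in KO (adjusted p = 0.0002313) and 0.74 ± 0.13 in WT (adjusted p = 0.0001196). With no scaling the brightest probe was not called in KO (0.08, adjusted p = 0.7331).

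A ratio taken within an array does not depend on the factor by which that array is scaled. The level of A_52_P196476 minus that of A_51_P388737 was -0.80 ± 0.27 in KO M1 and -2.87 ± 0.12 in WT M1 (SD, n = 4 each), a difference of 2.06 with no overlap (exact two-sided permutation p = 0.0286, the smallest that 4 against 4 arrays allow). The same difference was -0.08 in M2 (exact permutation p = 0.7143) and -0.03 in M0 (exact permutation p = 0.9143). This pair of probes was chosen after their values were seen, so the p-value in M1 only describes the separation and is no independent evidence for it.

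**Figure D3:**
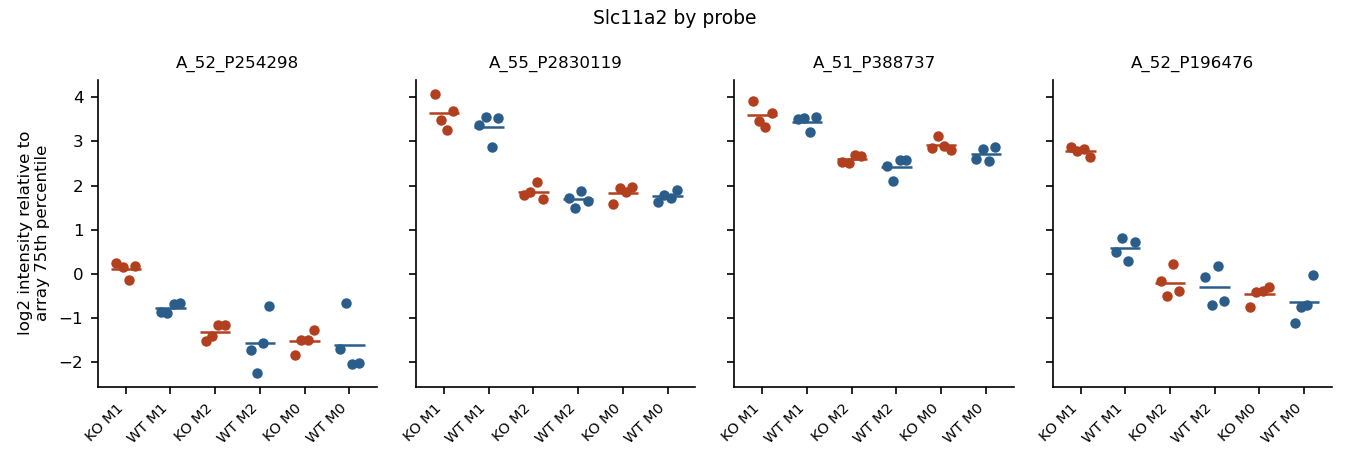
Log2 level of the 4 Slc11a2 probes on each array relative to the array's 75th percentile, by group, with the group mean as a line. A_52_P196476 separates KO M1 (2.64 to 2.87) from all other arrays, as does A_52_P254298, while A_51_P388737 overlaps between KO M1 and WT M1.

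Slc11a1 encodes NRAMP1, a metal carrier of the phagosome membrane known for its role in resistance to intracellular bacteria. Its single probe A_51_P186476 (mm9 chr1:74432161-74432220, plus strand) had levels of 7.35, 7.29, 6.94 and 7.22 in KO M1 and 7.69, 7.55, 7.43 and 7.59 in WT M1. M2 levels ran from 4.75 to 5.57 in KO and from 4.88 to 5.35 in WT, and M0 levels from 5.88 to 6.13 in KO and from 5.91 to 6.28 in WT. The 3 states were separate in each genotype, with M1 highest and M2 lowest. Slc11a1 rose with M1 by 1.23 ± 0.15 in KO (limma adjusted p = 4.969e-07) and 1.47 ± 0.15 in WT (adjusted p = 8.854e-08), and fell with M2 by 0.86 ± 0.15 in KO (adjusted p = 0.000535) and 0.98 ± 0.15 in WT (adjusted p = 0.0001213).

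All 4 KO M1 arrays lay below all 4 WT M1 arrays for Slc11a1, and the difference of -0.36 ± 0.15 just missed the threshold (limma adjusted p = 0.05502), with the same sign in all 4 sets. It was called lower with the set as a block (adjusted p = 0.04058), with quantile normalization (-0.62, adjusted p = 0.002667) and with median scaling (-0.64, adjusted p = 0.0009801). The change in M1 response was -0.23 ± 0.21 and was not called.

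Ferritin is a shell of heavy (Fth1) and light (Ftl1) chains, the heavy chain oxidising iron and the light chain helping it to mineralise. Both gave bright spots, with intensities of 350754 to 480522 for Fth1 (A_52_P49601, mm9 chr19:10059485-10059544, plus strand) and 432869 to 586302 for the brighter Ftl1 probe (A_55_P1983959, mm9 chr7:52714014-52714495, minus strand, across a splice junction). Both genes have many pseudogenes whose copies can bind the same probe. No spot was saturated.

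In intensity units the ferritin signals of KO M1 were not above those of WT M1. Ftl1 read 581710, 524204, 507098 and 472542 in KO M1 and 544988, 584762, 520472 and 524596 in WT M1, and Fth1 read 435250, 377642, 350754 and 389199 in KO M1 and 480522, 467631, 399546 and 434898 in WT M1. The groups overlapped for both. After division by the 75th percentile, which was lowest in KO M1, Ftl1 was higher in KO M1 than in WT M1 by 0.28 ± 0.11 (limma adjusted p = 0.0348), and the Fth1 difference was 0.14 ± 0.12 (adjusted p = 0.3558).

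The direction of the ferritin results therefore depends on the scaling. The Ftl1 difference in M1 was 0.08 with quantile normalization, 0.01 with median scaling and -0.06 with no scaling, none called. The call was lost when WT M1 replicate 1 or 2 or KO M1 replicate 1 or 2 was left out (0.21 to 0.33 over the fits with 1 array left out, limma adjusted p up to 0.1276). It was also lost with normexp background correction (0.24, adjusted p = 0.06308), with outlier spots kept (0.30, adjusted p = 0.07944) and with no filter on dim probes (0.28, adjusted p = 0.05288). The change in M1 response of Ftl1, 0.44 ± 0.15 (adjusted p = 0.02954), was not called with quantile normalization (0.17) or median scaling (0.25). The other Ftl1 probe, A_55_P2851873, gave 0.27 ± 0.12 (adjusted p = 0.0813). M1 over M0 in KO was 0.55 ± 0.12 for Fth1 (adjusted p = 0.0005692) and 0.66 ± 0.11 for Ftl1 (adjusted p = 1.851e-05), but -0.17 and -0.01 with quantile normalization. In WT the same differences were 0.30 (adjusted p = 0.05044) and 0.22 (adjusted p = 0.1002). The median of all probes in KO M1 against WT M1 was itself 0.15 with the 75th percentile, -0.03 with quantile normalization, -0.13 with median scaling and -0.20 with no scaling.

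**Figure D4:**
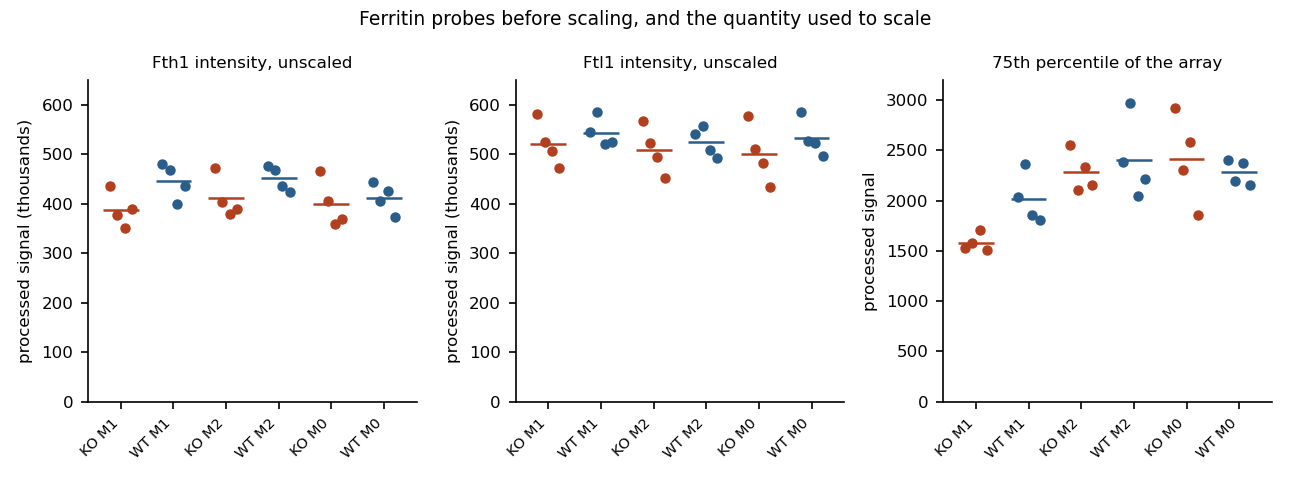
Processed signal of Fth1 (A_52_P49601) and the brighter Ftl1 probe before scaling (intensity units divided by 1000), and the 75th percentile of each array in intensity units, for the 4 arrays of each group as points with the group mean as a line. The ferritin signals of KO M1 and WT M1 overlap, while the 75th percentile is 1504 to 1705 in KO M1 and 1810 to 2364 in WT M1.

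Cd163 encodes the scavenger receptor for haemoglobin bound to haptoglobin, a surface marker of resident macrophages. Its probe A_51_P231042 (mm9 chr6:124280484-124280543, plus strand) was not well above background on any of the 8 M1 arrays and was so on all 16 others. Intensities were 9.31 to 15.4 in KO M1 and 6.74 to 11.8 in WT M1, against 559 to 1033 in KO M0 and 447 to 1330 in WT M0. Cd163 was at least 8.94-fold lower in KO M1 than in KO M0 (limma adjusted p = 3e-09) and at least 19.1-fold lower in WT M1 than in WT M0 (adjusted p = 4.611e-10). Between KO M1 and WT M1 both groups were below background, so no fold is given. IL-4 gave -0.01 ± 0.46 in KO and -0.17 ± 0.46 in WT, not called.

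Counted over the 9 genes, M1 against M0 gave 6 genes higher and 2 lower in KO, with 33% of all genes called higher and 23.5% lower, and 4 higher and 3 lower in WT, with 25.9% and 21.8% of all genes. The KO count was 4 higher and 3 lower with quantile normalization, where Ftl1 was not called and Fth1 was lower, and 3 higher and 3 lower with no scaling. The WT count was 3 higher and 3 lower with quantile normalization, with no scaling and without the 4th set, where Hamp was not called. In the main fit Slc11a2, Slc11a1, Cp and Hamp were higher and Slc40a1 and Cd163 lower in both genotypes. Fth1 and Ftl1 were called higher in KO and Tfrc lower in WT. Fth1 was also called higher in WT with the set as a block (0.30, limma adjusted p = 0.03062). No difference between the genotypes' Fth1 responses was called, so its rise is not shown to be particular to KO. M2 against M0 gave 1 gene higher (Tfrc) and 2 lower (Slc40a1 and Slc11a1) in each genotype. The shares of all genes were 6.83% higher and 6.23% lower in KO and 6.2% higher and 8.76% lower in WT. No change of the M2 response by genotype was called among the 9 genes, nor was any of their probes at an unadjusted p under 0.05, and limma called 0% of all genes (412 probes had an unadjusted p under 0.05). The KO and WT comparisons with M0 each use their own controls, whereas M1 and M2 share the M0 arrays of a genotype.

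**Figure D5:**
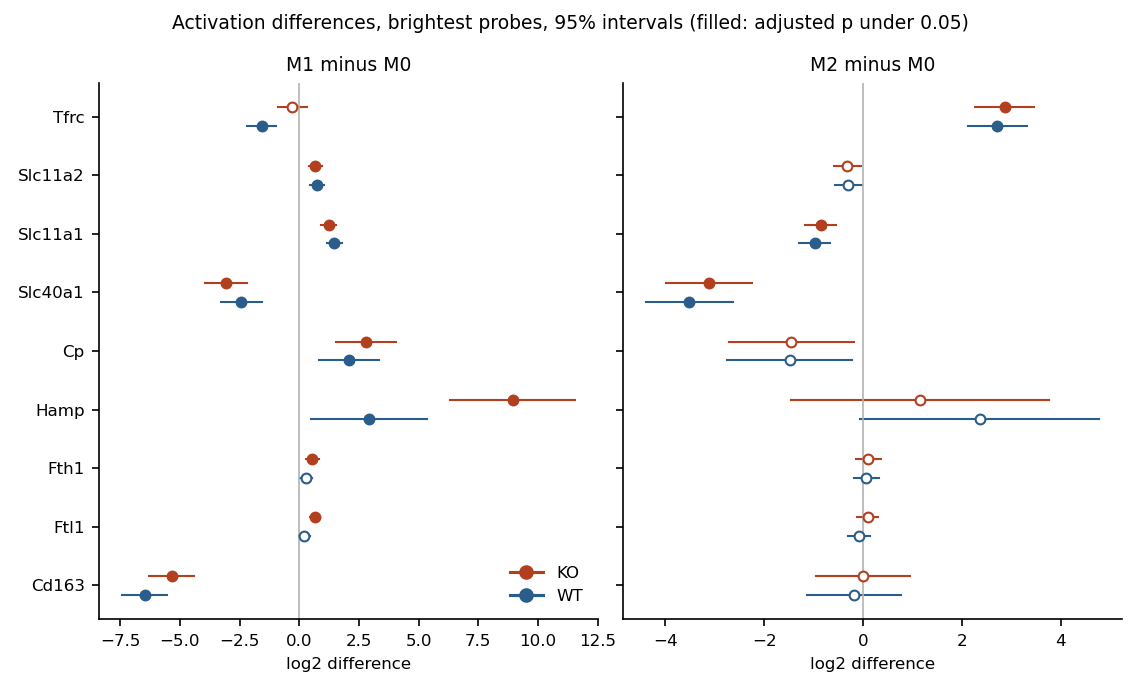
Log2 difference from M0 for the brightest probe of each gene, with 95% intervals, for M1 and M2 in KO and in WT; filled markers were called. Slc40a1 lies below 0 in all 4 comparisons (-2.42 to -3.51), and Tfrc lies at 2.86 in KO and 2.72 in WT in M2.

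Other genes of iron handling were taken from lists drawn up by function. Their counts in KO M1 against WT M1 stand beside 22.8% of all genes called higher, 21.3% called lower and an all-gene median of 0.13, and with so few genes a list none is read as a change of the list. Of 6 genes that control iron regulatory proteins or ferritin turnover, 2 were higher and 3 lower in KO M1 than in WT M1 (median -0.35). Fbxl5, which marks iron regulatory protein 2 for destruction when iron is plentiful, was lower by 1.45 ± 0.19 (difference -1.45, limma adjusted p = 3.353e-06), with mean levels of 3.53 in KO M1 and 4.98 in WT M1. The iron chaperones Pcbp2 and Pcbp1 were higher by 0.77 ± 0.10 and 0.605 ± 0.09, and Pcbp1 was not called with no scaling (0.26, adjusted p = 0.1436). Against M0, Fbxl5 rose in both genotypes with M1 (1.03 in KO, 2.51 in WT, the KO call lost with no scaling), and Ncoa4, the receptor that sends ferritin to the lysosome, fell (-1.82 in KO, -1.33 in WT). With M2, Aco1, which encodes iron regulatory protein 1, rose (0.96 in KO, 0.91 in WT) and Ncoa4 fell (-0.70 in KO, -0.67 in WT), a call lost in both genotypes with median scaling.

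Of 12 genes of heme recycling, 2 were higher and 4 lower in KO M1 than in WT M1 (median -0.14). Spic, the transcription factor of red pulp macrophages, was higher by 2.24 ± 0.49 (limma adjusted p = 0.0008175). Flvcr2, listed on the array under its older name Mfsd7c, was higher by 2.87 ± 0.55 (adjusted p = 0.0002172), with 4 of 4 KO M1 and 2 of 4 WT M1 arrays well above background. Hpx, the heme-binding protein hemopexin, was lower (-1.03 ± 0.22, adjusted p = 0.0005417). Hmox1, which opens the heme ring, rose with M1 in both genotypes (1.53 in KO, 1.39 in WT). With M2, Spic fell by 1.94 in KO and by 2.17 in WT.

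Of 11 genes of mitochondrial iron use, 10 were tested, and 1 was higher and 3 lower in KO M1 than in WT M1 (median -0.20). Abcb10, a transporter of the inner membrane, was lower (-1.24 ± 0.12, limma adjusted p = 5.716e-08), as was Nfs1, the cysteine desulfurase of iron-sulfur cluster assembly (-0.86 ± 0.08, adjusted p = 1.13e-08). The mitochondrial iron importer Slc25a37 rose with M1 (1.72 in KO, 1.86 in WT) and fell with M2 (-1.29 in KO, -1.33 in WT), as Slc11a1 did.

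Of 15 other iron carriers, reductases and oxidases, 11 were tested, and 2 were higher and none lower in KO M1 than in WT M1 (median 0.55). Mcoln1, a channel of the lysosome membrane that passes ferrous iron, was higher by 1.35 ± 0.09 (limma adjusted p = 3.124e-10), with mean levels of 5.48 in KO M1 and 4.13 in WT M1. Slc39a8, a zinc carrier that also moves iron, was higher by 1.297 ± 0.19 (adjusted p = 7.014e-06), within a fall from M0 seen in both genotypes (-3.41 in KO, -4.70 in WT). Trf, transferrin itself, fell with M1 in WT (-1.72), and Ltf, the neutrophil granule protein lactoferrin, was lower with M1 in WT (-3.99), where the neutrophil marker genes summed to 20.03 to 71.29 in WT M1 and 83.86 to 222.4 in WT M0; their part in it was not tested. For neither Trf nor Ltf was a difference between the genotypes' responses to M1 called, so these falls are not shown to be particular to WT.

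The genes whose levels followed each member most closely over the arrays are given as a description. They were Tmem26 for Tfrc (Pearson r = 0.9742, n = 24 arrays), Col20a1 for the brightest Slc11a2 probe (0.9649), Pik3ap1 and Slc25a37 for Slc11a1 (0.9825 and 0.9823), Stk17b for Slc40a1 (0.9383), Zfp292 for Cp (0.9651) and Sult1a1 for Cd163 (0.9826). For Hamp the nearest was Pard6g (0.9114, n = 23 arrays). Both ferritin genes were nearest to Actb (0.9679 for Fth1, 0.9795 for Ftl1). The points share 6 groups and the scaling of each array.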

How the data were processed

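RNA from 24 samples was read on one-colour Agilent arrays. The authors deposited scanner output; the intensity used is the processed signal, with background already subtracted by Agilent Feature Extraction, version 10.7.3.1 per the file headers and 9.1 per the submitters' processing notes. Coordinates are mm9, per the file headers.

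Intensities were divided by each array's 75th percentile over gene probes and put on the log2 scale. Spots marked as outliers were left out (2943 missing values), spots of a probe were averaged, and probes well above background on at least 4 of 24 arrays were kept (39036 of 56605). Limma 3.58.1 in R 4.3.3 fitted 1 mean per group (18 residual degrees of freedom) and no term for the set, with Benjamini-Hochberg adjustment over all kept probes. The brightest probe stood for a gene in counts. Tested on simulated data for KO against WT in M1, with 200 of 39036 probes changed, the fit recovered 47% of changes of log2 size 1 and 83% of size 2. The simulation drew independent noise for each array with no set effect, and changed far fewer probes than the 17676 called in the data. Because the adjustment depends on how many probes change, these percentages are not the recovery in the real comparison.

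The genes and lists were chosen with earlier results of these data known. All probes of the 9 genes are described; of each list, up to 3 called genes per comparison with the largest differences could be named, and for each of the 9 genes the 3 best correlated. The replicate numbers did not pair the samples across states, while same-numbered KO and WT arrays of a state shared a set, as given with the alternatives. The number of arrays limits the precision. The authors' table of processed values was not used here. A result of the list of mitochondrial iron use and one of the marker lists are not reported here.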

Additional observations from a re-analysis of the deposited data

Results flagged for a closer look

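In 108 groups of 4 arrays, 6 had an array standing apart by Dixon's test, where chance gives about 1 in 20. For Hamp, WT M2 replicate 2 had a level of 0.45 against -7.85 to -7.53 on the other arrays, in a patch of nonuniform spots, and KO M1 replicate 1 had 0.16 against 0.62 to 0.68. The other 4 were Cp probes on arrays of the 4th set: A_55_P2111302 had 0.19 in WT M2 replicate 4 (others -2.10 to -1.73), A_55_P2626135 had -2.34 in KO M2 replicate 4 (others -3.91 to -3.79) and -2.07 in KO M0 replicate 2 (others -3.14 to -2.97), and A_55_P2853032 had 0.82 in KO M0 replicate 2 (others -0.76 to -0.53).

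By the test of the difference itself, the M1 response was called different in KO and WT for 5 of the 19 probes tested. Of all 39036 probes, 11840 were called in this test, so the count says little about iron genes as a group. The log2 difference of responses was 6.01 for Hamp, 2.02 for Slc11a2 probe A_52_P196476, 1.79 for Tfrc probe A_65_P06446, 1.29 for Tfrc probe A_52_P228236 and 0.44 for Ftl1 probe A_55_P1983959. The Hamp call was lost with outlier spots kept and without the 4th set. The Ftl1 call was lost with normexp, quantile normalization, median scaling, no scaling between arrays and outlier spots kept. It was also lost without the 2 arrays with over 1000 nonuniform spots (0.39, limma adjusted p = 0.05022) and in 5 of the 16 fits with 1 array left out. The call of Tfrc probe A_52_P228236 was lost with no scaling between arrays.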

How the results depend on the processing

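The number of the 9 genes called in KO M1 against WT M1 was 3, and became 7 with the set as a block (Tfrc, Ftl1, Hamp, Cp and Cd163 higher, Slc11a1 and Slc40a1 lower, the Cd163 spots being not well above background on any of the 8 M1 arrays) and 5 without the 4th set. Calls over all probes rose as well, from 17676 to 21711 with the set as a block and to 20373 without the 4th set. With median scaling it was 4 (Hamp and Tfrc higher, Slc11a1 and Slc40a1 lower), with quantile normalization 3 (Hamp and Tfrc higher, Slc11a1 lower) and with no scaling 3 (Hamp higher, Slc11a1 and Slc40a1 lower). For M1 against M0 in KO, 6 higher and 2 lower became 4 and 3 with quantile normalization and 3 and 3 with no scaling. The number called for the M1 response was 3, and 1 with outlier spots kept and 1 with no scaling between arrays, an alternative chosen after seeing the data, as was leaving out the 2 arrays with over 1000 nonuniform spots. Calls over all probes for this response were 11840, and 10613 with outlier spots kept and 11186 with no scaling. With 1 array left out at a time, the counts ran from 2 to 3 for KO against WT in M1, 0 to 0 in M2 and in M0, 8 to 8 for M1 against M0 in KO, 6 to 7 in WT, 3 to 4 for M2 against M0 in both KO and WT, 2 to 3 for the M1 response and 0 to 0 for the M2 response. Directions turned for ferritin and Pcbp1: M1 against M0 in KO was -0.168 for Fth1, -0.0115 and -0.0877 for the 2 Ftl1 probes and -0.0954 for Pcbp1 with quantile normalization, and -0.0391 for Fth1 with no scaling; KO against WT in M1 was -0.063 for Ftl1 with no scaling. The scaling sets every array's own centre, and no outside standard was used.

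Same-numbered arrays of different groups correlated in their deviations from the group means between -0.4244 and 0.8362. The numbers do not pair the samples across states, where the same number can fall in different sets. Within a state, however, the same-numbered KO and WT arrays belonged to the same set. Arrays of the same set in different groups correlated between 0.0757 and 0.8362 (median 0.2976). Those of different sets correlated between -0.5778 and 0.3666 (median -0.0831). The main fit held no term for the set, so its p-values do not take this likeness into account. With the replicate block, 4 genes were called in KO M1 against WT M1 and 8 in M1 against M0 in WT, and the other counts were 0, 0, 8, 3, 3, 3 and 0 (KO against WT in M2 and M0, M1 against M0 in KO, M2 against M0 in KO and WT, the M1 and the M2 response). The 4 genes included Cd163, whose spots were not well above background on any M1 array. Over all probes, calls in KO M1 against WT M1 were 17676 in the main fit and 18438 with the replicate block. For M1 against M0 in WT they were 18676 and 19273.

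Over all probes, 53.6% of calls in KO M1 against WT M1 were higher, against 63% with normexp, 44.1% with quantile, 34.6% with median scaling and 30.3% with no scaling. For M1 against M0 it was 57.7% in KO and 53.2% in WT, against 26.5% and 38.4% with no scaling. For M2 against M0 it was 52.5% in KO and 40.6% in WT, against 75.2% and 65.3% with median scaling. For the M1 response it was 52.8%, against 38.8% with median scaling and 25.7% with no scaling. Calls over all probes for M2 against M0 were 5218 in KO and 5857 in WT, and 9477 and 10292 with the set as a block.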
